A study of Mus musculus with 36 samples.

Results

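The Met receptor, its ligand hepatocyte growth factor (HGF), the proteases and inhibitors that control HGF activation, and the paralogous ligand and receptor pair were described here as a set of 10 genes, Met, Mst1r, Hgf, Mst1, Hgfac, Hpn, St14, Spint1, Spint2 and Gab1. They were taken by symbol from the count files, which list 24421 genes, and all 10 were found in each of the 36 libraries. The libraries came from whole liver of male C57BL/6J mice, bought at 7 weeks of age and fed CDAHFD for 12 weeks, a diet rich in fat and lacking choline that produces features of steatohepatitis and fibrosis. All 4 groups shared this feeding. The first experiment followed it with 2 weeks on a diet labelled HFD, during which 10 mice were given Fc weekly at 4.3 mg/kg and another 10 were given Fc(mML1)B3 weekly at 5 mg/kg, 2 doses in all. The second followed it with 10 days on standard chow and 3 doses of the same proteins, with 9 mice on Fc and 7 on Fc(mML1)B3. Fc is the constant fragment of human IgG1, and Fc(mML1)B3 is the same fragment carrying in one surface loop a macrocyclic peptide that binds mouse Met and acts as a Met agonist. The comparisons ask whether the RNA of the machinery that produces, activates and receives HGF differed where an external agonist of the same receptor was given, and whether it differed between the diets. Receptor phosphorylation and protein were not measured in these files.

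HGF is secreted as an inactive single chain, in liver mainly by non-parenchymal cells, of which stellate cells are a known source. Serine proteases cut it into the active heterodimer. These include the plasma protease that Hgfac encodes, made by hepatocytes, and the membrane proteases hepsin (Hpn) and matriptase (St14). The Kunitz-type inhibitors encoded by Spint1 and Spint2 block these proteases at the cell surface. Active HGF dimerizes Met, a receptor tyrosine kinase of hepatocytes, cholangiocytes and other epithelia, and Gab1 is the docking protein through which phosphorylated Met recruits PI3-kinase, Shp2 and other effectors. Mst1 encodes macrophage-stimulating protein, a hepatocyte product related to HGF and cut by proteases of the same kind, and Mst1r encodes its receptor Ron, a relative of Met.

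Gab1 and Hpn were the only members called in the comparison of the proteins under the standard diet, and Met is the receptor that Fc(mML1)B3 binds, so the 250 bases before the annotated start of these genes are shown, read 5′ to 3′ on the strand of the gene. Capitals mark a GC box (GGGCGG on either strand) or an E-box (CACGTG, which reads the same on both strands, the core to which Clock and Bmal1 as well as Myc bind). The D-box (TTATGTAA on either strand), the core of sites for the clock output factors Dbp, Tef and Hlf, was searched too and was in none of the 3 windows. Sequences and coordinates are those of RefSeq on GRCm38.p6, the assembly also named mm10, and each window ends at the gene start that the count files use.
Met, chr6:17463707-17463956, plus strand: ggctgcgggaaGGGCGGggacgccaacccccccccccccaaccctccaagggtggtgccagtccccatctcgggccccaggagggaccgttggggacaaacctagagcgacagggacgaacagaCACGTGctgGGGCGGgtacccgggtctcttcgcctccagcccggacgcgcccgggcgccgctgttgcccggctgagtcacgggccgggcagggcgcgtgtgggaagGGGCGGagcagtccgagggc
Gab1, chr8:80880520-80880769, minus strand: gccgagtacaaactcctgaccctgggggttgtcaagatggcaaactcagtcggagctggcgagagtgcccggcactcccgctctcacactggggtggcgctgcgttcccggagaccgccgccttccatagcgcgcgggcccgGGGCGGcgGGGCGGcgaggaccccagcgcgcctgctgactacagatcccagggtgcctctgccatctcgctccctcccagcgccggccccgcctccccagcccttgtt
Hpn, chr7:31115327-31115576, minus strand: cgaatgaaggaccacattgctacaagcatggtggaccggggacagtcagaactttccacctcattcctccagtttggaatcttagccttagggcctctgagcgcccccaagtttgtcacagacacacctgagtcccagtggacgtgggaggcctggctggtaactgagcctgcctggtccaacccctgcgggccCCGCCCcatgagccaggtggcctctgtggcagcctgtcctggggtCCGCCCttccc
The Met window held 3 GC boxes and 1 E-box, and the Gab1 and Hpn windows held 2 GC boxes each and no E-box. A GC box was in 32.7%, an E-box in 6.02% and a D-box in 0.819% of 32851 promoter windows of the same length in the mouse table. These matches describe the letters only. The table had a window for 9 of the 10 members.

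Each library held between 14949035 and 28466853 counts on genes (median 23558194.5). The 9 hepatocyte markers in the files, among them Alb and Apob, summed to between 85215 and 162203 CPM (reads scaled to a common library total, with TMM factors) in every library, and none of the cholangiocyte, stellate cell, endothelial or macrophage markers was at 0 throughout. Diet was tied to the experiment, the length of treatment, the number of doses and the numbering of the libraries, and these cannot be told apart in the comparisons of the diets. The library names carry sample numbers. Under HFD the Fc libraries form 1 number series, and the Fc(mML1)B3 libraries form 2 others, of 4 and 6 libraries, so protein and series cannot be told apart there. Under the standard diet 5 Fc libraries have low numbers, while the other 4 Fc libraries share a higher-numbered series with all 7 Fc(mML1)B3 libraries. What these numbers record is not given in the sources used here. Between the proteins, 13 of 15 tested clock genes differed under HFD, where 14.8% of all genes did, and 12 of 16 under the standard diet, where 16.1% did, and the time of day at which livers were taken is not in the labels. The summed clock gene level was 653 to 890 CPM for Fc and 461 to 554 CPM for Fc(mML1)B3 under HFD, and 570 to 809 CPM and 745 to 881 CPM under the standard diet. The part of sampling time in the results below was not tested.

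The members differed widely in level. Per kilobase of exon, Hpn was highest, with group means of 159 to 189 CPM per kb, followed by Hgfac (90.5 to 114), Mst1 (71.3 to 79.3) and Spint2 (56.4 to 66.7). Met stood apart from these at 9.11 to 13.6 CPM per kb. Gab1 (3.45 to 4.71), Hgf (1.94 to 3.89), Spint1 (1.08 to 3.10) and St14 (0.864 to 2.07) were lower, and Mst1r was near the limit of detection at 0.0708 to 0.103 CPM per kb. Within each group, Hpn was above Hgfac, Hgfac above Mst1 and Met above the next gene in every mouse. Neighbours in the order were not separated everywhere. Mst1 exceeded Spint2 in 8 of 10 Fc mice under HFD, and Hgf exceeded St14 in 4 of those 10. In the plot of levels per kilobase the members that hepatocytes are known to secrete or display in quantity lie above those of the receptor and its docking protein.

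**Figure D1:**
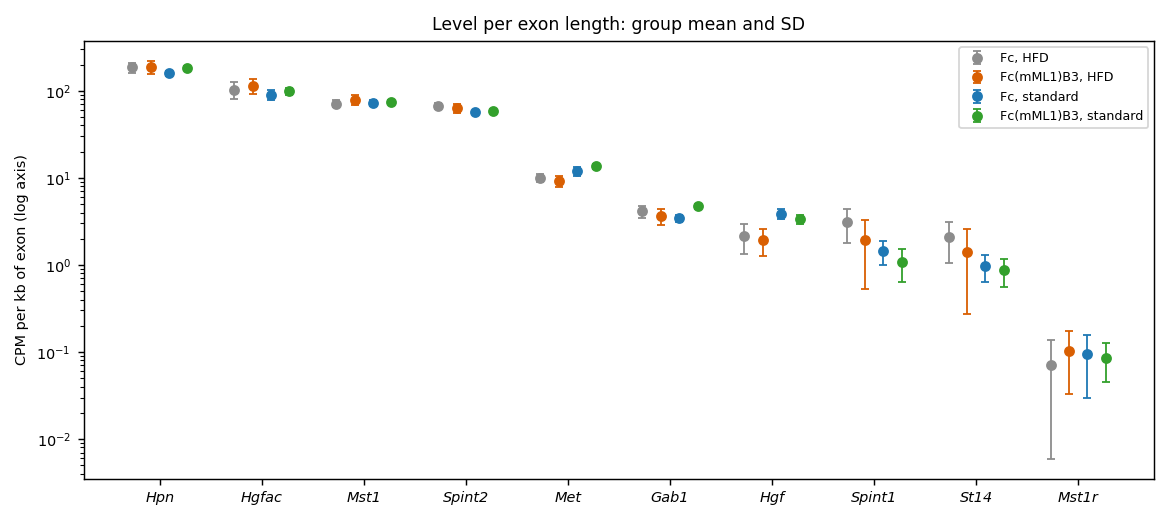
Mean level of each of the 10 genes in each group, in CPM per kilobase of exon on a log axis, with bars for the SD over 7 to 10 mice. Hpn lies highest at 159 to 189 and Mst1r lowest at 0.0708 to 0.103, and Hgf is the gene whose standard diet groups (3.89 and 3.34) lie farthest above its HFD groups (2.15 and 1.94).

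Under HFD no member differed between Fc(mML1)B3 and Fc: 0 of 9 tested members passed an adjusted p of 0.05 in edgeR's quasi-likelihood test, where 14.8% of 13299 tested genes did. DESeq2 and limma-voom with quality weights (limma-voom from here on) also called 0 of them. At an unadjusted p under 0.05 the edgeR fit held 1, Mst1, and 3966 of the 13299 genes. Under the standard diet 2 of 10 members were higher with Fc(mML1)B3, Gab1 and Hpn, where 16.1% of 13570 genes were called in either direction. Between the diets in Fc mice, 7 of 9 tested members were called, against 49.0% of 13506 genes: Hgf and Met were higher under the standard diet, and Hpn, St14, Spint1, Spint2 and Gab1 were lower. Between the diets in Fc(mML1)B3 mice, 3 of 10 were called, Met, Hgf and Gab1, all higher under the standard diet, against 38.2% of 13627 genes. The difference between the effects of Fc(mML1)B3 in the 2 experiments (the interaction) was called for 1 of 10 members, Gab1, against 9.06% of 14105 genes. With so few members these shares are read beside the background only, and the description below is of single genes. With upper-quartile scaling the share of higher genes among those called under HFD went from 54.9% to 44.6%, and 0 members were called there too.

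**Figure D2:**
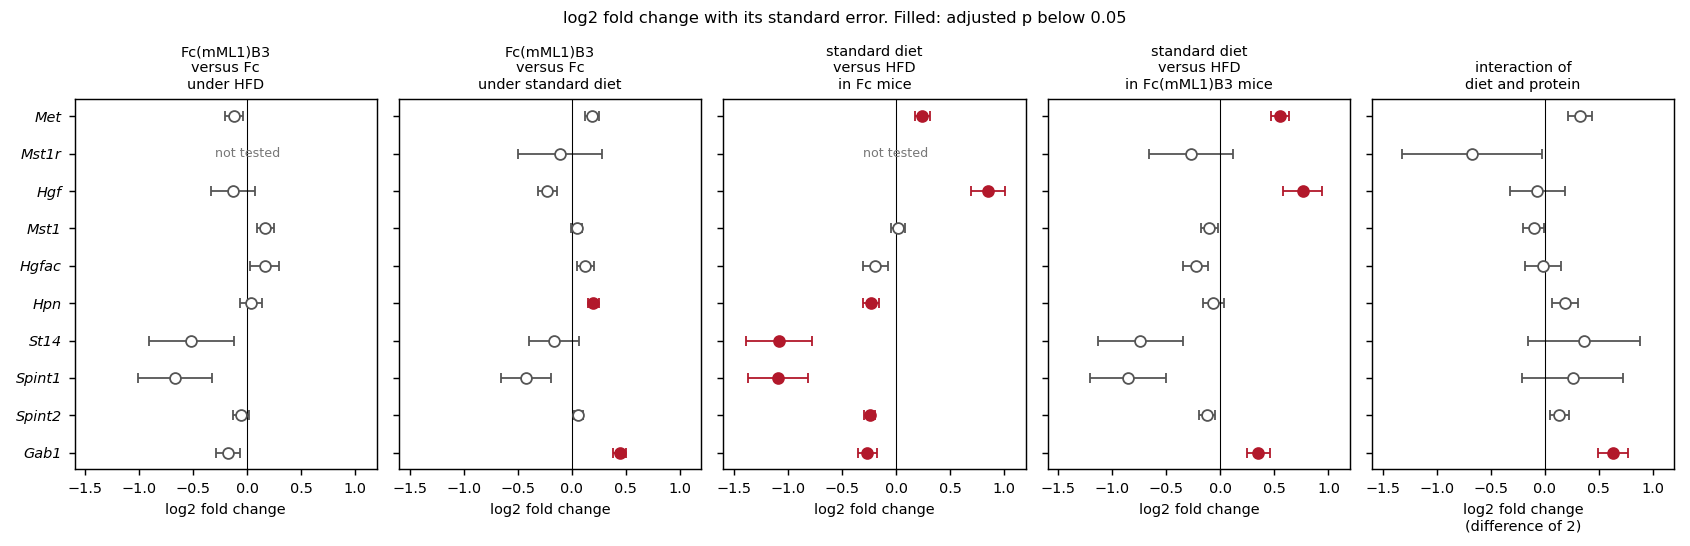
The log2 fold change of each gene with its standard error (bars) in the 5 comparisons, the fifth being the difference between the protein effects under the standard diet and under HFD. Filled points passed an adjusted p of 0.05: none under HFD, Gab1 and Hpn under the standard diet, 7 genes between the diets in Fc mice, 3 in Fc(mML1)B3 mice, and Gab1 in the interaction.

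Gab1, the docking protein of Met, was the member that moved most clearly with Fc(mML1)B3, and it did so under the standard diet. The lowest, median and highest level in the 9 Fc mice were 14.4, 17.9 and 19.1 CPM. In the 7 Fc(mML1)B3 mice they were 21.1, 23.3 and 25.97 CPM. Every Fc(mML1)B3 mouse was thus above every Fc mouse, which held for 2.93% of all tested genes in either direction. The means were 17.2 ± 1.66 and 23.5 ± 1.68 CPM (SD), a 1.36-fold increase (log2 0.44, SE 0.063, edgeR adjusted p = 6.59e-05). The exact 2-sided permutation test of the same difference gave p = 0.000175, the smallest that the 11440 groupings of these mice can give. Among the Fc mice the level went with the numbering of the libraries. The 5 low-numbered Fc libraries held 14.4 to 17.9 CPM and the 4 higher-numbered ones held 18.1 to 19.1 CPM. Within the higher-numbered series, which holds both proteins, the groups still did not overlap, and the increase was smaller (log2 0.33, SE 0.065, edgeR adjusted p = 0.0071).

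Under HFD the same gene showed no such difference. The Fc mice had 14.6, 21.9 and 24.5 CPM (lowest, median, highest) and the Fc(mML1)B3 mice 12.9, 17.96 and 24.2 CPM. The groups overlapped over nearly their whole range, and the log2 fold change was −0.18 (SE 0.111, edgeR adjusted p = 0.298). The 2 effects had opposite signs, and the test of their difference was significant (log2 0.63, SE 0.141, edgeR adjusted p = 0.00224). Among Fc mice Gab1 was lower under the standard diet than under HFD (log2 −0.27, SE 0.089, edgeR adjusted p = 0.0164). Among Fc(mML1)B3 mice it was higher (log2 0.35, SE 0.105, edgeR adjusted p = 0.0116).

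Hpn, which encodes hepsin, a membrane protease of hepatocytes that cuts HGF and macrophage-stimulating protein, was the other member higher with Fc(mML1)B3 under the standard diet. Fc mice had 281, 321 and 349.8 CPM (lowest, median, highest). Fc(mML1)B3 mice had 344, 365 and 401 CPM. All 7 treated mice lay above the median of the Fc mice, though the ranges overlapped at their ends. The increase was 1.15-fold (log2 0.20, SE 0.049, edgeR adjusted p = 0.0083; exact permutation p = 0.000699), and it was of the same size within the higher-numbered series (log2 0.22, SE 0.060, edgeR adjusted p = 0.0418). Under HFD the means were 373 ± 48.1 CPM for Fc and 378 ± 66.6 CPM for Fc(mML1)B3 (edgeR adjusted p = 0.859). There the series of 4 treated libraries held 414 to 510.2 CPM and the series of 6 held 281 to 375 CPM, without overlap. The difference between the experiments was not called for Hpn (log2 0.18, SE 0.119, edgeR adjusted p = 0.405). With group means removed, Hpn had r = 0.669 with the hepatocyte and −0.659 with the cholangiocyte markers over the 16 standard diet libraries. It had −0.603 with the stellate cell, 0.375 with the endothelial and 0.306 with the macrophage markers. The part of cell composition in its difference was not tested.

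**Figure D3:**
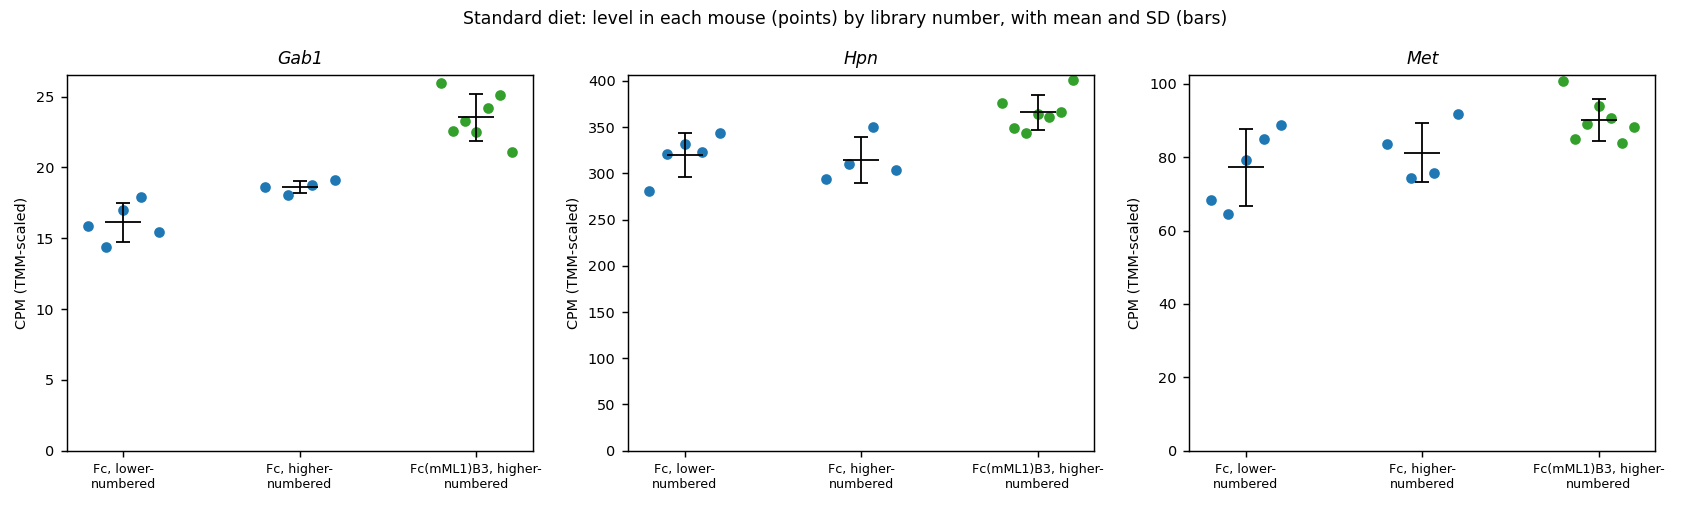
CPM of Gab1, Hpn and Met in each mouse of the standard diet experiment (points), split by the number in the library name, with the mean and SD of each set (bars). The 7 Fc(mML1)B3 mice lie above all Fc mice of both series for Gab1. For Hpn they overlap the higher-numbered Fc mice only, and for Met they overlap both series.

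Met itself, the receptor kinase that the grafted peptide binds, had 64.7, 79.3 and 91.7 CPM (lowest, median, highest) in Fc mice on standard chow and 83.9, 89.0 and 101 CPM in those given Fc(mML1)B3. All 7 treated mice were above the Fc median, and the ranges overlapped. The log2 fold change was 0.19 (SE 0.065) and missed the threshold (edgeR adjusted p = 0.0562; unadjusted exact permutation p = 0.0124), and DESeq2 placed it on the other side (adjusted p = 0.0419). Within the higher-numbered series it was 0.15 and was not called (edgeR adjusted p = 0.201). Under HFD Met was 66.6 ± 6.36 CPM for Fc and 60.6 ± 8.74 CPM for Fc(mML1)B3, a log2 fold change of −0.13 (SE 0.081, edgeR adjusted p = 0.309). The lowest of these was a treated mouse at 42.1 CPM (mouse 2), without which the value was −0.073. The difference between the effects was 0.33 (SE 0.110, edgeR adjusted p = 0.0543). It also lay close to the threshold and crossed it with upper-quartile scaling (adjusted p = 0.0408).

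Between the diets Met was higher under the standard diet. In Fc(mML1)B3 mice the lowest value under the standard diet, 83.9 CPM, exceeded the highest under HFD, 71.5 CPM, and 10.2% of tested genes were separated to that extent in either direction. The fold change was 1.47 (log2 0.56, SE 0.083, edgeR adjusted p = 3.01e-05). In Fc mice the ranges, 56.1 to 77.5 CPM under HFD and 64.7 to 91.7 CPM under the standard diet, overlapped, with 8 of 9 mice on the standard diet above the HFD median. The fold change was 1.18 (log2 0.24, SE 0.069, edgeR adjusted p = 0.00594). With upper-quartile scaling, which moved the median log2 fold change of all genes from −0.04 to −0.13, the value in Fc mice was 0.15 and was not called (adjusted p = 0.0627). That scaling also lowered the share of higher genes among those called from 48.7% to 33.97% in Fc mice and from 49.9% to 36.2% in Fc(mML1)B3 mice.

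Mst1r, the receptor Ron, had too few reads for more than its range to be given. Its libraries held 0 to 23 reads, and the 1 library with 0 reads, from an Fc mouse under HFD, allows up to 0.153 CPM, the level of 3 reads. It fell under the expression filter in the HFD comparison and in the comparison of the diets in Fc mice. Where it was tested its standard errors were 0.388 or more on the log2 scale.

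Hgf was higher under the standard diet than under HFD whichever protein was given, and this was the largest increase among the members in both comparisons. Under HFD the Fc mice held 4.98, 7.21 and 14.9 CPM (lowest, median, highest) and the Fc(mML1)B3 mice 2.83, 7.04 and 11.1 CPM. Under the standard diet the Fc mice held 10.6, 14.01 and 17.2 CPM and the Fc(mML1)B3 mice 10.1, 12.0 and 14.8 CPM. All mice on the standard diet were above the HFD median of their protein, with overlap in both cases, in Fc mice by the single HFD mouse at 14.9 CPM whose nearest neighbour had 10.1 CPM. The increase was 1.80-fold in Fc mice (log2 0.85, SE 0.157, edgeR adjusted p = 1.39e-04; log2 1.01 without that mouse) and 1.70-fold in Fc(mML1)B3 mice (log2 0.76, SE 0.181, edgeR adjusted p = 0.0024). Most of the 12 stellate cell and fibroblast markers, which include the matrix and activation genes Col1a1, Col1a2 and Acta2, went the other way. Of the 12, 8 were lower and 1 (Rgs5) higher under the standard diet in each of the 2 comparisons. Of all genes, 49.0% and 38.2% were called in either direction. The summed level of the markers was 1336 and 1163 CPM under HFD and 915 and 849 CPM under the standard diet (medians, Fc and Fc(mML1)B3). In whole liver a smaller number of cells of a type and less RNA per cell cannot be told apart.

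Between the proteins Hgf did not pass the threshold. Under the standard diet its log2 fold change was −0.22 (SE 0.090, edgeR adjusted p = 0.0982; unadjusted exact permutation p = 0.0435), with 6 of 7 treated mice below the Fc median. Under HFD it was −0.13 (SE 0.206, edgeR adjusted p = 0.701), and without the Fc mouse at 14.9 CPM it was 0.02. Once the group means were removed, the genes most like Hgf across the 36 libraries were Fnbp1l (Pearson r = 0.843), Bmpr1a (0.840) and Mef2a (0.829). Those most like Met were Crbn (0.728), Gabpa (0.722) and Zfp874a (0.718). Without the 2 libraries farthest from the median of Hgf its values were 0.736, 0.746 and 0.713. Without the 2 farthest from the median of Met its values were 0.624, 0.563 and 0.563. Libraries share depth and cell composition, so these are descriptions. Hgf had r = 0.504 with the mean of the stellate cell markers, 0.562 with that of the cholangiocyte markers, −0.398 with the endothelial, −0.553 with the macrophage and −0.600 with the hepatocyte markers. The values of Met with these 5 lists lay between −0.246 (stellate cell) and 0.171 (hepatocyte).

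Mst1, the ligand of Ron, was abundant and even. Its group means ran from 163 ± 14.2 to 181 ± 22.5 CPM, and it was called in none of the 5 comparisons. Under HFD 9 of 10 treated mice lay above the Fc median of 161 CPM, between 172 and 218 CPM, and 1 lay at 132.98 CPM, below all Fc mice. The log2 fold change was 0.17 (SE 0.079, edgeR adjusted p = 0.159). Without that mouse it was 0.21 (edgeR adjusted p = 0.0339).

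Hgfac, the plasma HGF activator, behaved like Mst1 in that it was called in none of the 5 comparisons. Fc mice under HFD ranged from 157 to 314 CPM, and Fc(mML1)B3 mice from 138.6 to 308 CPM. On standard chow the ranges were 159 to 231 CPM and 182 to 236 CPM. The log2 fold changes between the proteins were 0.16 (SE 0.133) and 0.12 (SE 0.080), with edgeR adjusted p of 0.437 and 0.317. The value under HFD was 0.119 to 0.244 with 1 library left out and was not called. Within the higher-numbered standard diet series the value was 0.28 and was called (edgeR adjusted p = 0.0317). Between the diets they were −0.19 in Fc mice and −0.23 in Fc(mML1)B3 mice (edgeR adjusted p = 0.17 and 0.131). The former was −0.105 without Fc HFD mouse 3. With upper-quartile scaling both were called (adjusted p = 0.0332 and 0.0395), and with limma-voom the latter was (adjusted p = 0.0258). Without the treated HFD mouse at 138.6 CPM the second of these was −0.30 and was called (edgeR adjusted p = 0.0104).

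Hpn, the second hepatocyte protease, was lower under the standard diet in Fc mice (log2 −0.23, SE 0.075, edgeR adjusted p = 0.0134), with all 9 mice below the HFD median of 362 CPM. In Fc(mML1)B3 mice, where the standard diet group held 344 to 401 CPM and the HFD group 281 to 510.2 CPM, it was not called (log2 −0.07, SE 0.097, edgeR adjusted p = 0.62). The value lay between −0.106 and −0.0066 with 1 library left out, the latter without treated HFD mouse 2. Among the 3 members made mainly by hepatocytes, Hpn, Hgfac and Mst1, the pairwise r was 0.780 to 0.861 over the 20 HFD libraries and 0.367 to 0.763 over the 16 standard diet libraries. Over all 36 libraries it was 0.709 (Hpn with Mst1), 0.798 (Hpn with Hgfac) and 0.841 (Hgfac with Mst1). Without the 2 libraries farthest from the median of 1 gene of each pair these were 0.532, 0.703 and 0.768.

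St14, which encodes matriptase, and Spint1, its cognate Kunitz inhibitor, are both epithelial genes, and their levels went together from mouse to mouse. In Fc mice under HFD, Spint1 ranged from 1.48 to 10.0 CPM and St14 from 1.72 to 12.7 CPM. Of these 10 mice, 2 (numbers 3 and 5) held 1.48 and 1.87 CPM of Spint1 and 1.90 and 1.72 CPM of St14, while the other 8 held at least 7.18 CPM of Spint1 and at least 5.22 CPM of St14. In Fc(mML1)B3 mice under HFD the median was 3.24 CPM of Spint1 and 4.12 CPM of St14, with 1 mouse (number 5) at 12.1 and 16.6 CPM. Under the standard diet every mouse of both groups was below 6 CPM for both genes.

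Between the diets both genes were lower under the standard diet in Fc mice, Spint1 by 1.09 (SE 0.280, edgeR adjusted p = 0.00284) and St14 by 1.09 (SE 0.308, edgeR adjusted p = 0.006) on the log2 scale, that is, to 0.469 and 0.471 of the HFD level. All 9 mice on the standard diet were below the HFD median for both genes. In Fc(mML1)B3 mice the differences had the same sign but missed the threshold, with log2 −0.86 (SE 0.351, edgeR adjusted p = 0.0591) for Spint1 and −0.74 (SE 0.394, edgeR adjusted p = 0.143) for St14. Without treated HFD mouse 5 they were −0.55 (edgeR adjusted p = 0.128) and −0.41 (edgeR adjusted p = 0.333). Spint1 was called when treated mouse 4, 6 or 10 under HFD or treated mouse 3 under the standard diet was left out (log2 −0.93 to −1.02, lowest edgeR adjusted p = 0.0336). With limma-voom and its quality weights the values were −0.50 for Spint1 and −0.30 for St14, neither called. Between the proteins under HFD neither was called: Spint1 was −0.67 (SE 0.343, edgeR adjusted p = 0.193) and St14 was −0.52 (SE 0.393, edgeR adjusted p = 0.39). Without treated mouse 5 the value for Spint1 was −0.97 and was called (edgeR adjusted p = 0.0299), and that for St14 was −0.84 and was not (edgeR adjusted p = 0.0962). Under the standard diet they were −0.42 (SE 0.234, edgeR adjusted p = 0.237) and −0.17 (SE 0.233, edgeR adjusted p = 0.671), the latter between −0.253 and −0.030 with 1 library left out.

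The markers of cholangiocytes, the epithelium of the bile ducts, moved with these 2 genes. The 10 markers, among them Krt19, Epcam and Spp1, summed to 189 to 909 CPM in Fc mice under HFD (median 616), 191 to 913 CPM in Fc(mML1)B3 mice under HFD (median 345), 256 to 533 CPM in Fc mice under the standard diet (median 351) and 203 to 441 CPM in the treated mice of that experiment (median 374). None of the 10 was called between the proteins under HFD, 1 (Sox9) was lower under the standard diet, and between the diets 6 were lower in Fc mice and 4 in Fc(mML1)B3 mice, beside 49.0% and 38.2% of all genes called in either direction. With group means removed, r with the mean of these markers was 0.979 for Spint1 and 0.925 for St14 over the 20 HFD libraries, and 0.899 and 0.860 over the 16 standard diet libraries. Spint1 and St14 had r = 0.916 and 0.844 with each other in the same libraries. Over the HFD libraries they also had r = 0.714 and 0.782 with the stellate cell markers and −0.844 and −0.830 with the hepatocyte markers. Their values there were −0.558 and −0.573 with the endothelial and −0.351 and −0.371 with the macrophage markers. The nearest genes, looked up after the values were seen, were Spp1, Tspan8 and Epcam for Spint1 and Spp1, Col6a3 and Pkhd1 for St14. Of these, Spp1 and Epcam are themselves among the 10 markers. The part of bile duct content in the differences of both genes was not tested.

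**Figure D4:**
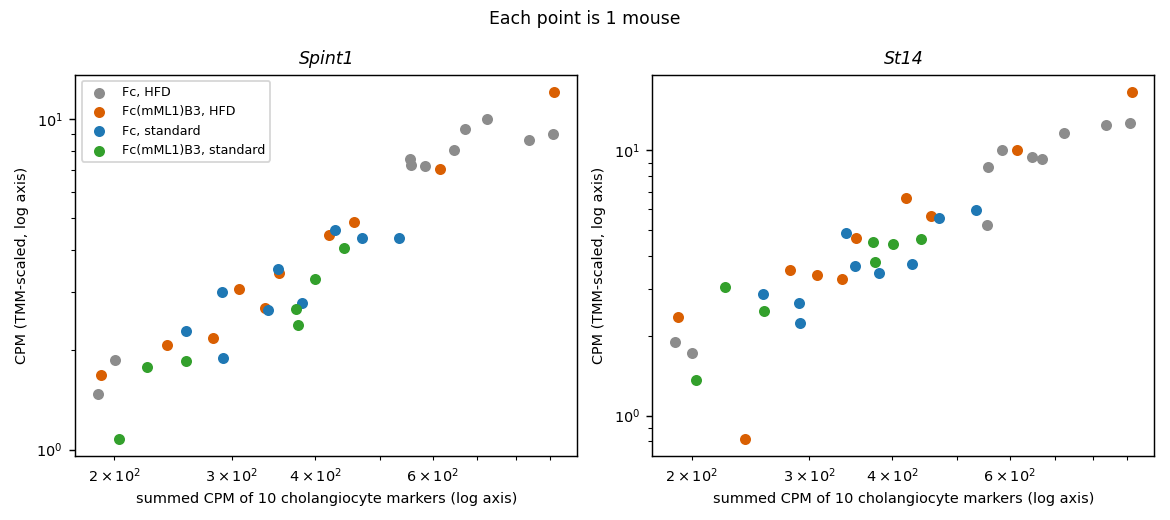
CPM of Spint1 and St14 against the summed CPM of 10 cholangiocyte markers, both on log axes, with 1 point per mouse coloured by group. In both panels the mice lie along 1 rising band, with HFD mice at both ends (summed level 189 to 913) and standard diet mice between 203 and 533.

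Spint2, the broader Kunitz inhibitor, did not follow Spint1. It had means of 97.4 ± 7.46 (Fc) and 92.6 ± 11.3 CPM (Fc(mML1)B3) under HFD and 82.3 ± 4.21 and 86.0 ± 4.02 CPM under the standard diet. Its r with the cholangiocyte markers was 0.162 within HFD and −0.265 within the standard diet. In Fc mice it was lower under the standard diet, with all 9 mice below the HFD median of 95.8 CPM (log2 −0.24, SE 0.052, edgeR adjusted p = 6.04e-04). In Fc(mML1)B3 mice it was not called (log2 −0.13, SE 0.073, edgeR adjusted p = 0.181), nor between the proteins under either diet (edgeR adjusted p = 0.606 and 0.367).

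**Figure D5:**
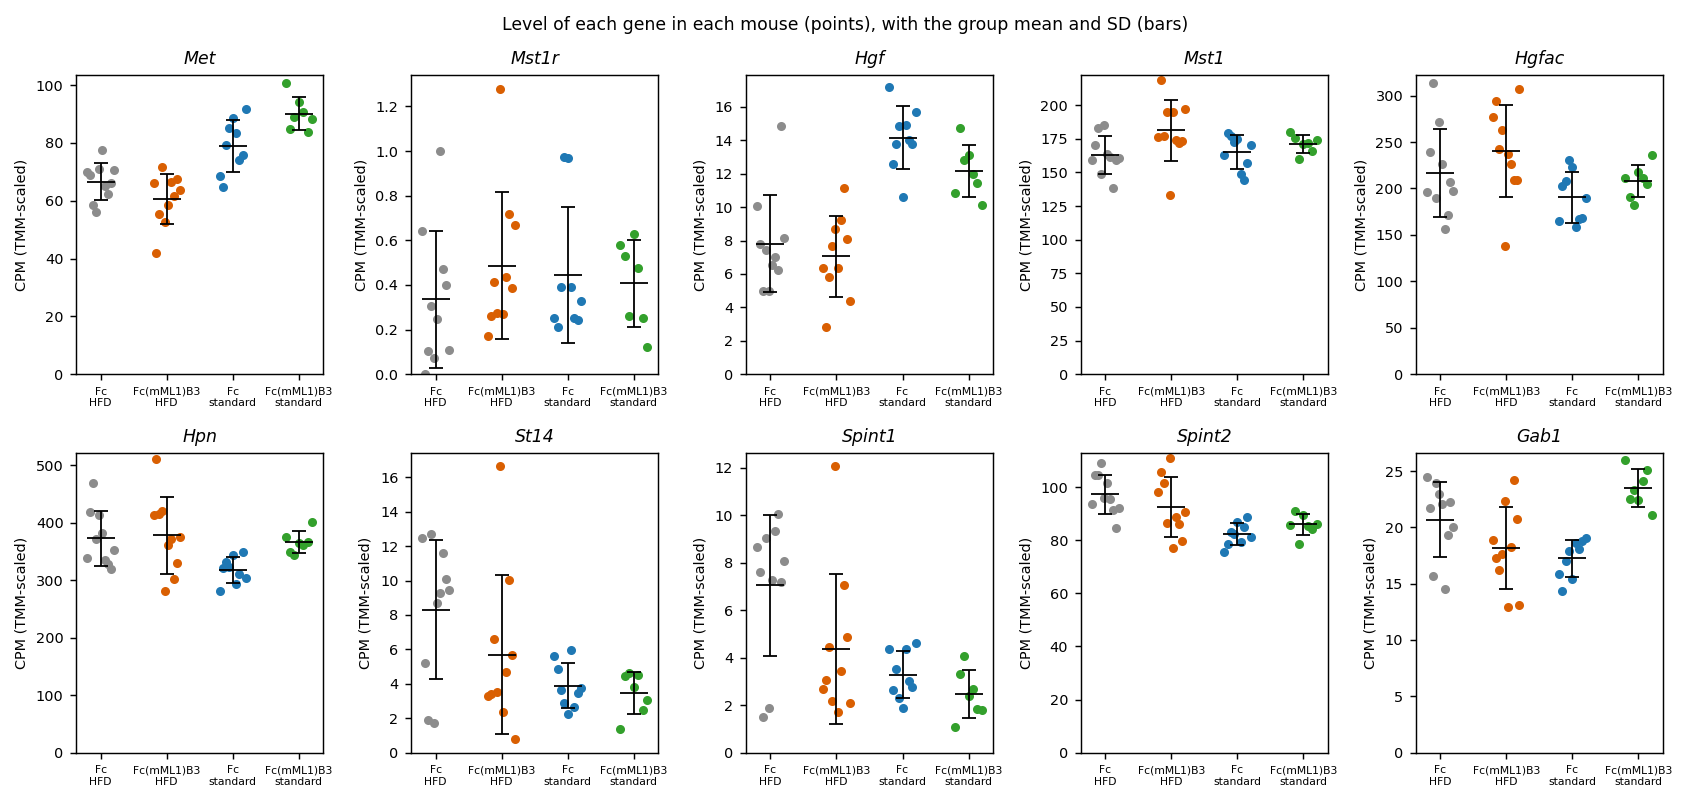
CPM of each of the 10 genes in each of the 36 mice (points) by group, with the group mean and SD (bars) and axes from 0. Gab1 is separated between the proteins under the standard diet (14.4 to 19.1 against 21.1 to 25.97), Hgf and Met are higher in the standard diet groups, and Spint1 and St14 have their widest spread under HFD.

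Other genes of the pathway were read from lists of interactors, proteases and downstream components. Of 14 tested proteases, inhibitors and receptors that act on HGF or its activators, 3 were lower with Fc(mML1)B3 under HFD and 2 under the standard diet, and none was higher, where 14.8% and 16.1% of all genes were called in either direction. Plat, tissue plasminogen activator, was lower under both diets (log2 −0.99, SE 0.220, edgeR adjusted p = 0.00332, and −0.73, SE 0.188, edgeR adjusted p = 0.0114). Prss8, the epithelial protease prostasin, fell from 19.0 ± 5.01 to 10.0 ± 2.68 CPM under HFD and was 19.6 ± 3.84 and 20.1 ± 3.55 CPM under the standard diet, and its interaction was called (log2 0.95, SE 0.208, edgeR adjusted p = 0.00186).

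Of 32 adaptors and proximal signalling genes, 3 were lower and none higher with Fc(mML1)B3 under HFD, and 5 were higher and 3 lower under the standard diet, beside 14.8% and 16.1% of all genes called in either direction. The 3 under HFD were Mapk3, Pik3r2 and Pak1. On standard chow the 3 higher genes of smallest p were Pik3r1, Pik3cb and Plcg1. Pik3r1, a regulatory subunit of PI3-kinase, held 74.0 to 91.4 CPM in Fc mice and 105 to 137.4 CPM in Fc(mML1)B3 mice. The ranges did not overlap, which held for 2.93% of all tested genes in either direction (log2 0.51, SE 0.059, edgeR adjusted p = 8.69e-06). Pik3cb, a catalytic subunit, was higher too (log2 0.34, SE 0.061, edgeR adjusted p = 6.82e-04), and Plcg1, a phospholipase that Met engages, was higher by 0.33 (SE 0.073, edgeR adjusted p = 0.00423). The lower genes were Sos1, Pik3ca, a second catalytic subunit, and Nras. The median log2 fold change of the list was 0.02 under HFD and −0.02 under the standard diet, beside −0.01 for all genes in both.

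The 23 early and feedback genes of receptor tyrosine kinase signalling, 21 of them tested within each diet, are given beside 14.8% of all genes called under HFD and 16.1% under the standard diet. Under HFD 2 of the 21 were lower, Junb and Ccnd1, and none higher, and under the standard diet Junb and Spred2 were lower and Dusp1 higher. Junb, an immediate early transcription factor, held 33.4 ± 11.9 CPM (Fc) and 19.0 ± 4.02 CPM (Fc(mML1)B3) under HFD and 39.8 ± 9.27 and 19.3 ± 6.08 CPM under the standard diet. Ccnd1, cyclin D1, held 111 ± 43.5 and 67.0 ± 11.005 CPM under HFD and 100.5 ± 18.8 and 112 ± 18.7 CPM under the standard diet, and its interaction was called (log2 0.89, SE 0.216, edgeR adjusted p = 0.00528). Of 16 tested co-receptors and pericellular partners, Egfr was the 1 higher under HFD (log2 0.62, SE 0.202, edgeR adjusted p = 0.0413) and Cd44 the 1 lower under the standard diet (log2 −0.31, SE 0.094, edgeR adjusted p = 0.0291). Of 14 genes of Met shedding, dephosphorylation and turnover, Ptprb was higher under HFD, and Cblb and Adam17 were lower under the standard diet.

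Between the diets these lists held more calls, as did all genes, of which 49.0% were called in Fc mice and 38.2% in Fc(mML1)B3 mice. In Fc mice 13 of 32 adaptors were higher and 5 lower under the standard diet, and 13 and 3 in Fc(mML1)B3 mice. Ptpn11, which encodes Shp2, a phosphatase recruited by Gab1, was higher in both (log2 0.63, SE 0.065, and 0.52, SE 0.067). Cbl, the ubiquitin ligase that marks activated Met for degradation, changed most in its list, though from a low level. It held 0.112 to 0.890 CPM under HFD and 2.73 to 5.67 CPM under the standard diet in Fc mice, and 0.371 to 1.06 and 2.58 to 3.74 CPM in Fc(mML1)B3 mice, with no overlap in either (log2 2.66, SE 0.236, and 2.29, SE 0.187). Groups did not overlap for 9.81% of all genes in the former comparison and 10.2% in the latter. Among the co-receptors 8 were higher and 3 lower in Fc mice, and 4 and 3 in Fc(mML1)B3 mice, with Plxnb1 and Plxnb2, semaphorin receptors that associate with Met, leading the higher genes in both. Of the proteases 4 were higher and 5 lower in Fc mice, and 3 and 4 in Fc(mML1)B3 mice, with Klkb1, plasma kallikrein, leading the higher genes (log2 0.61, SE 0.082, and 0.56, SE 0.078) and the urokinase receptor gene Plaur among the lower in both.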

How the data were processed

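Per the labels and the study's methods, the authors trimmed the reads with fastp, removed ribosomal RNA with Bowtie2 2.4.5, aligned to mm10 with STAR 2.7.10a and counted read pairs per gene with featureCounts (Subread 2.0.3). The deposited values are raw counts, whole numbers per gene, and strand was not used. Groups came from the sample titles. The members and lists were chosen with earlier results of these data known. Counts were tested across all genes with edgeR 4.0.16 (R 4.3.3), using TMM scaling, filterByExpr, the quasi-likelihood F-test and Benjamini-Hochberg adjustment, with a call at an adjusted p under 0.05. The proteins were compared within each diet, the diets within each protein, and both in an interaction. P-values measure the spread between mice. Genes named beside the members were those called in their list or most correlated with a member after removal of group means. Alternatives were DESeq2 1.42.0, limma-voom with a quality weight for each library (limma 3.58.1), upper-quartile scaling and other filters. Further ones were the study's fold limits, a replicate block, single library series and each library left out. The edgeR fit was run on simulated counts to check the code only, and no outcome is given here. The floor given for the library with 0 reads covers counting error only. No 2 libraries of a group agreed within sampling noise (147 pairs, lowest chi-square per degree of freedom 6.30). Same-numbered mice did not deviate together (at most 2 of 7 pairs over a correlation of 0.1), so numbers were not used for pairing. A gene of the protease list is counted but not reported here.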

Additional observations from a re-analysis of the deposited data

Results flagged for a closer look

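Gab1 was set apart because its log2 fold changes in the 2 experiments differed by a test of that difference (log2 0.63, edgeR adjusted p = 0.00224), and it was called in every fit that left out 1 of the 36 libraries. The experiments also differed in diet, duration, doses and library numbering, which cannot be told apart. Under HFD the protein and the number series cannot be told apart either. Of 16 tested clock genes, 9 were higher and 5 lower in the interaction, where 9.06% of all genes were called. The part of sampling time was not tested.

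In the Fc(mML1)B3 group under HFD, mouse 5 stood away from the other 9 for 2 genes, Mst1 (gap over range 0.519 on the log2 scale) and Hgfac (0.514), the lowest in both. Chance sets apart about 1 in 20 groups, and here 2 of 40 were. The same library had the lowest hepatocyte (85215 CPM) and endothelial (250 CPM) marker sums of its group. It also had the group's highest cholangiocyte (913 CPM), stellate cell (1917 CPM) and macrophage (1193 CPM) marker sums. The part of these in its values was not tested.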

How the results depend on the processing

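Of 1392 values of members under alternatives, 1341 kept their direction and their side of the threshold, 28 gained a call, 1 lost it (Met between the diets in Fc mice with upper-quartile scaling) and 22 changed sign, none of them called. Under HFD the genes called numbered 3039 with limma-voom, 178 at the study's thresholds, 1294 with the replicate block and 705 with the series of 4 treated libraries only. On standard chow they numbered 320, 1302 (replicate block) and 942 (higher-numbered series), and in the interaction 2026 with limma-voom. Members called were 0 at the study's thresholds under the standard diet, 6 with upper-quartile scaling between the diets in Fc(mML1)B3 mice, and 2 in the interaction with limma-voom, upper-quartile scaling or the replicate block, Met being added. With each library left out they ranged from 0 to 2 under HFD (2 without treated mouse 5), 2 to 4 under the standard diet (4 without Fc mouse 5, Met and Hgf added) and 1 to 2 in the interaction. With the replicate block Gab1 was 0.49 (adjusted p = 0.00148) and Hpn 0.21 (adjusted p = 0.0482) under the standard diet. Spint1 between the diets in Fc(mML1)B3 mice was called with upper-quartile scaling (adjusted p = 0.0454).

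Signs changed as follows, on the log2 scale. Under HFD, Hgf was 0.046 with the series of 6 treated libraries and ranged from −0.23 to 0.021 with libraries left out. Hpn there was −0.0024 with upper-quartile scaling, −0.14 with the series of 6, and −0.022 to 0.084 with libraries left out, and Spint2 was 0.041 with the series of 4. On standard chow Mst1r was 0.046 with limma-voom, 0.41 in the higher-numbered series and −0.24 to 0.046 with libraries left out. Between the diets Mst1 in Fc mice was −0.071 with upper-quartile scaling and −0.0071 to 0.054 with libraries left out, and Mst1r in Fc(mML1)B3 mice was −0.40 to 0.00087. In the interaction Hgf was 0.015 with the replicate block and −0.24 to 0.0081 with libraries left out, and Hgfac was −0.11 to 0.024. With the series of 4 and of 6 treated HFD libraries, Hgfac was 0.34 and 0.034, Mst1 0.27 and 0.10, Spint1 −1.13 and −0.41 and St14 −0.94 and −0.28, none called. The cause was not tested. Depth limits Mst1r, with 0 to 23 reads a library.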

Other observations

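After group means were removed, the gene most like each member not covered above was looked up after the values were seen. Across the 36 libraries it was F12, the coagulation factor XII gene, for Hgfac (Pearson r = 0.917) and Fah, an enzyme of tyrosine breakdown, for Hpn (0.918). It was Mccc2, an enzyme of leucine breakdown, for Mst1 (0.899), Sirt2 for Spint2 (0.823) and Myo1d for Gab1 (0.770). For Mst1r, with its few reads, it was Runx2 (0.736). Without the 2 libraries farthest from the member's median these values were 0.857, 0.877, 0.830, 0.817, 0.730 and 0.676. Over the 20 HFD libraries Gab1 had r = −0.677 with the endothelial, −0.673 with the macrophage, −0.556 with the hepatocyte, 0.559 with the stellate cell and 0.551 with the cholangiocyte markers. Over the 16 standard diet libraries its values with the same lists lay between −0.0047 and 0.261. These libraries share depth and composition.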
